A study of Callithrix jacchus with 39 samples.

Results

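Fibroblast growth factor 2 (FGF2, ENSCJAG00000002744) and the ETS transcription factor ETV5 (ENSCJAG00000014672) were followed through embryonic stem cells (ESCs) and early embryos of the common marmoset, together with related genes of the same pathway. The rule named 9 genes by symbol, and 6 of them had a row among the 30811 gene IDs of the count table. These 6 were FGF2, ETV5, the receptors FGFR1 (ENSCJAG00000002394) and FGFR2 (ENSCJAG00000001438), the feedback inhibitor SPRY2 (ENSCJAG00000022514) and the ETS factor ETV4 (ENSCJAG00000010626). FGF4, SPRY4 and DUSP6 were not analysed here. The study profiled polyadenylated RNA of 39 libraries in 13 groups of 3. The ESC groups were naive DSY-c2 cells titled TgON, primed DSY-c2 cells titled Tg, primed DSY127 cells, naive N40 cells titled TgOFF, primed N40 cells titled Tg, and primed No.40 cells. The 7 embryo stages began with the morula and went on with inner cell mass (ICM) from the early, blastocyst, expanded, hatching and hatched blastocyst and then the postimplantation epiblast. The sources used here define neither Tg nor the link of DSY-c2 to DSY127 or of N40 to No.40, so a TgON or TgOFF state cannot be told apart from the ESC line that carries it. They give no culture medium, so whether FGF2 or an inhibitor of the pathway was supplied to any group is not known here. They also do not state that replicates were independent cultures or embryos, and p-values then cover only the spread between these libraries.

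FGF ligands bind FGF receptor tyrosine kinases together with heparan sulfate chains on the cell surface, and the receptors signal through the RAS-ERK kinase cascade. ETV4 and ETV5 are transcription factors whose genes are switched on by this cascade in many tissues, and sprouty proteins such as SPRY2 are induced by it and dampen it. In human cells, FGF signalling supports primed pluripotency, and in the mouse blastocyst it steers ICM cells towards primitive endoderm.

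The ESC libraries held 38.8 to 78.7 M counts (M, 1000000) and the embryo libraries 45.3 to 59.0 M counts. The state labels were checked against marker lists, as sums of CPM (counts per 1000000 counts, with library sizes scaled by TMM over all 39 libraries). Naive pluripotency markers (7 of 8 measured) summed to 2722 to 2940 CPM in naive DSY-c2 cells against 669 to 1277 CPM in primed ones, and to 3445 to 3812 CPM in naive N40 cells against 302 to 327 CPM in primed ones. Primed markers (6 of 7 measured) summed to 711 to 932 CPM in naive DSY-c2 cells against 2651 to 4279 CPM in primed ones, and to 1285 to 1433 CPM in naive N40 cells against 3396 to 3906 CPM in primed ones. A few libraries stood apart from the others of their group. Primed DSY-c2 replicate 4 and No.40 replicate 1 had high mesoderm markers (5 of 6 measured), at 265 CPM against 45.9 and 46.7 CPM, and at 124 CPM against 16.8 and 14.2 CPM. The same libraries had high primitive endoderm markers (6 of 7 measured), at 476 CPM against 59.7 and 42.8 CPM, and at 396 CPM against 65.5 and 22 CPM. Naive N40 replicate 1 had 442 CPM of fibroblast markers (6 of 8 measured) against 180 and 180 CPM in the other naive N40 libraries. Naive DSY-c2 replicate 3 had 67 CPM of fibroblast markers against 185 and 163 CPM, and 28.4 CPM of trophectoderm markers (5 of 8 measured) against 144 and 183 CPM. Its neural markers (3 of 5 measured) summed to 53.2 CPM against 94.5 and 92.2 CPM. It also had the lowest FGF2, ETV5, ETV4 and SPRY2 levels of the naive DSY-c2 libraries. The column headers tag lanes L6 and L7 for all primed DSY-c2 libraries, naive DSY-c2 replicates 1 and 2 and No.40 replicate 1, and lanes L1 and L2 for every other library. In the embryo, hatched blastocyst ICM replicate 1 had 1521 CPM of trophectoderm markers (5 of 8 measured) against 242 and 598 CPM, 4417 CPM of primitive endoderm markers against 1095 and 2215 CPM, and 650 CPM of shared pluripotency markers (5 of 6 measured) against 2510 and 2678 CPM in the other libraries of its stage. Where leaving out one of these libraries ends or makes the call of a gene described below, the text on that gene names the library or counts it.

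Differences were tested with the quasi-likelihood method of edgeR over all genes, and calls were made where the Benjamini-Hochberg adjusted p was under 0.05. Naive against primed cells gave calls for 58.8% of the 17957 genes tested in DSY-c2 and for 61% in N40, so a call as such is common here. Among the 6 genes, 2 were called in DSY-c2, namely FGFR1 and ETV5, and 4 in N40, namely FGF2, FGFR1, SPRY2 and ETV4. The naive effect itself differed between the lines for 15.1% of all genes, higher in DSY-c2 for 6.55% and lower for 8.57%, and for FGF2 and SPRY2 among the 6, both lower in DSY-c2. A log2 fold change of these fits lies above the ratio of the printed CPM levels by a median of 0.10 in DSY-c2 and 0.15 in N40, because the fits scale ESC libraries apart from embryo libraries.

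FGF2, the ligand of the set, was higher in naive than in primed N40 cells and showed no called change in DSY-c2. It had 5.64, 4.93 and 3.6 CPM in naive N40 cells, against 0.775, 1.62 and 1.67 CPM in primed N40 cells. Every naive N40 library lay above every primed one. The log2 fold change was 1.95 ± 0.49 (SE, n = 3 and 3, edgeR adjusted p = 0.00254), and it stayed between 1.58 and 2.11 with each library left out in turn, with adjusted p-values of 0.00336 to 0.0197. In DSY-c2, FGF2 had 4.38, 3.96 and 2.18 CPM in naive cells, against 2.79, 7.08 and 3.89 CPM in primed cells. These libraries overlapped, and primed replicate 4 was the highest of the 39. The log2 fold change in DSY-c2 was -0.29 ± 0.47 (edgeR adjusted p = 0.619), and 0.15 without primed replicate 4. Subtracting the N40 effect from the DSY-c2 effect gave -2.24 ± 0.67 (edgeR adjusted p = 0.035). That difference kept its sign without each of the 12 libraries (-2.42 to -1.70), but it lost its call without any 1 of 7 of them, with adjusted p-values of up to 0.0974. The 7 were primed replicate 4 and naive replicates 2 and 3 of DSY-c2, and replicates 1 and 2 of both the primed and the naive N40 cells.

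**Figure D1:**
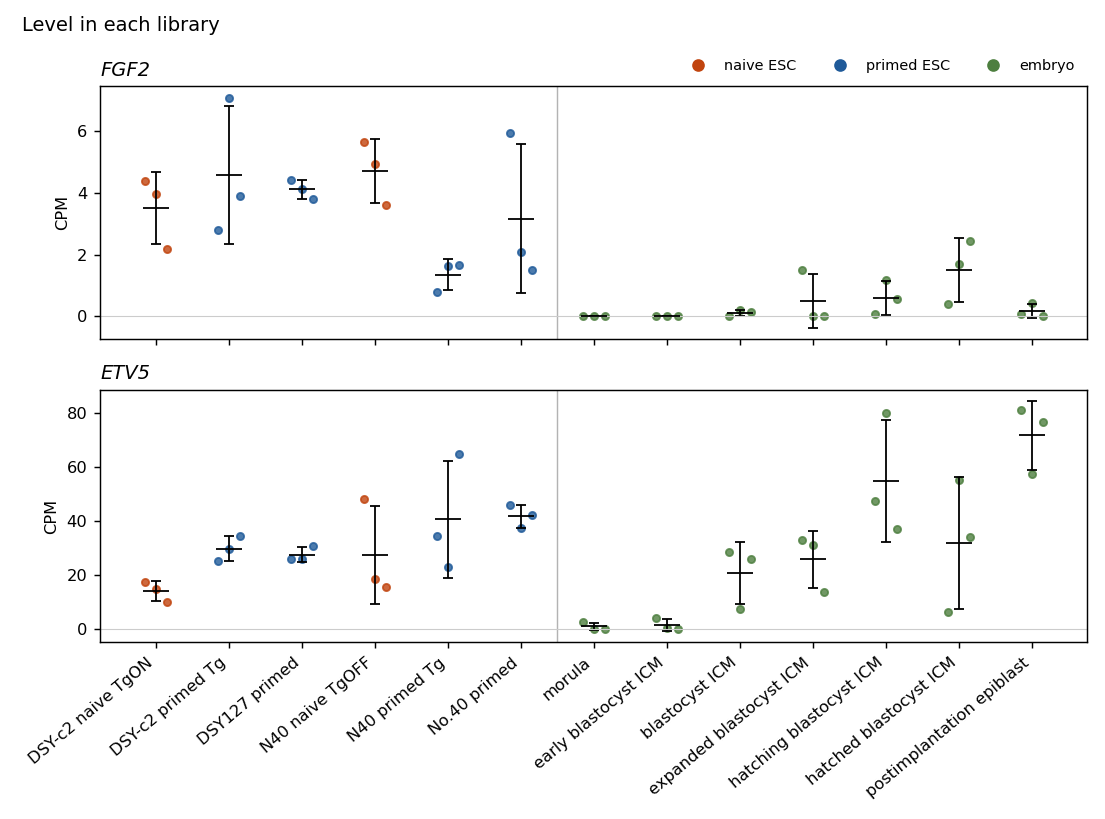
Levels of FGF2 (upper panel) and ETV5 (lower panel) in CPM on linear axes, 1 point per library, with the mean and SD of 3 libraries in black, for 6 ESC groups and 7 embryo stages. FGF2 is highest among ESC groups and at 0 in morula and early blastocyst ICM, whereas ETV5 is highest in the epiblast at 71.8 CPM and near 0 only in the morula and the early blastocyst ICM.

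Mean FGF2 levels varied between primed groups, but edgeR called none of the comparisons tested. Primed N40 cells averaged 1.35 ± 0.503 CPM (SD, n = 3), below 3.17 ± 2.41 CPM in No.40 cells (SD, n = 3), whose libraries had 5.94, 2.08 and 1.49 CPM. The ranges of the groups overlapped, and the log2 fold change of -1.34 ± 0.48 was not called (edgeR adjusted p = 0.0578), in a comparison where 21.9% of all genes were (8.3% higher and 13.6% lower in N40). It depended on single libraries, at -0.41 (adjusted p = 0.588) without No.40 replicate 1 and at -1.58 (adjusted p = 0.0213) without No.40 replicate 3. Primed DSY-c2 cells averaged 4.59 ± 2.23 CPM and DSY127 cells 4.12 ± 0.319 CPM (SD, n = 3 each). Their log2 difference was 0.10 ± 0.47 (edgeR adjusted p = 1), and -0.31 without primed DSY-c2 replicate 4. The DSY127 libraries lay close together, at 4.42, 4.14 and 3.79 CPM. DSY127 minus No.40 gave 0.37 ± 0.47 (edgeR adjusted p = 0.743). None of the 6 genes was called by edgeR between primed DSY-c2 and DSY127 cells, where 1.88% of all genes were, or between DSY127 and No.40 cells, where 4.47% were (2.65% higher and 1.82% lower in DSY127). At an unadjusted p under 0.05 the counts were 1 and 0, beside 1518 and 3278 of all 17957 genes tested. DESeq2 called 0 of the 6 in both comparisons, beside 545 and 1541 of all genes. Since every primed DSY-c2 library carries another lane tag than every DSY127 library, lane and group cannot be told apart in that comparison.

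In primed DSY-c2 and No.40 cells, the library with the most FGF2 also had the most mesoderm and primitive endoderm markers. In DSY127 cells replicate 3 had the least FGF2, at 3.79 CPM, but the most primitive endoderm markers, at 275 against 122 and 63.1 CPM. DSY127 replicate 1 had the most FGF2, at 4.42 CPM, and the most mesoderm markers, at 96.4 against 53.3 and 93.7 CPM. In naive DSY-c2 cells the libraries lay close together in both lists. Replicates 1, 2 and 3 there had 2.48, 2.76 and 2.53 CPM of mesoderm markers. Their primitive endoderm markers summed to 149, 195 and 190 CPM, and replicate 1 had the most FGF2. Primed DSY-c2 replicate 4 had 7.08 CPM of FGF2 with 265 CPM of mesoderm and 476 CPM of primitive endoderm markers, and No.40 replicate 1 had 5.94 CPM with 124 and 396 CPM. In N40 the primitive endoderm list summed to 103 to 157 CPM in naive cells against 14.8 to 24.5 CPM in primed cells, and the mesoderm list to 2.36 to 4.1 CPM in naive cells against 6.38 to 11.1 CPM in primed cells. The part of these markers in the FGF2 values was not tested. In bulk RNA of this kind, more cells of a type that expresses a gene and more RNA per cell cannot be told apart.

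FGF2 shares its locus with another gene. In the RefSeq annotation of assembly calJac240_pri, FGF2 overlaps NUDT6, a nudix hydrolase gene known in human as its antisense partner, and the strand setting used in counting is not given in the sources used here. LOC100385417 overlaps FGF2 as well. Only gene spans were compared, so the length of exon that the genes share is not known here. Reads from sequence that both FGF2 and NUDT6 cover can be told apart only if strand was used. NUDT6 had 9.83, 9.53 and 9.77 CPM in naive N40 cells, against 6.52, 7.97 and 5.79 CPM in primed N40 cells. These groups did not overlap, but the log2 fold change of 0.67 ± 0.29 was not called (edgeR adjusted p = 0.0543). The ratio of FGF2 counts to NUDT6 counts was 0.573, 0.518 and 0.369 in naive N40 cells, against 0.119, 0.203 and 0.289 in primed N40 cells. The ratio was thus higher in every naive library, and over all 18 ESC libraries the ratio ran from 0.119 to 0.573. NUDT6 was high in the same single libraries as FGF2, at 14.5 CPM in primed DSY-c2 replicate 4 and 12.8 CPM in No.40 replicate 1.

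**Figure D2:**
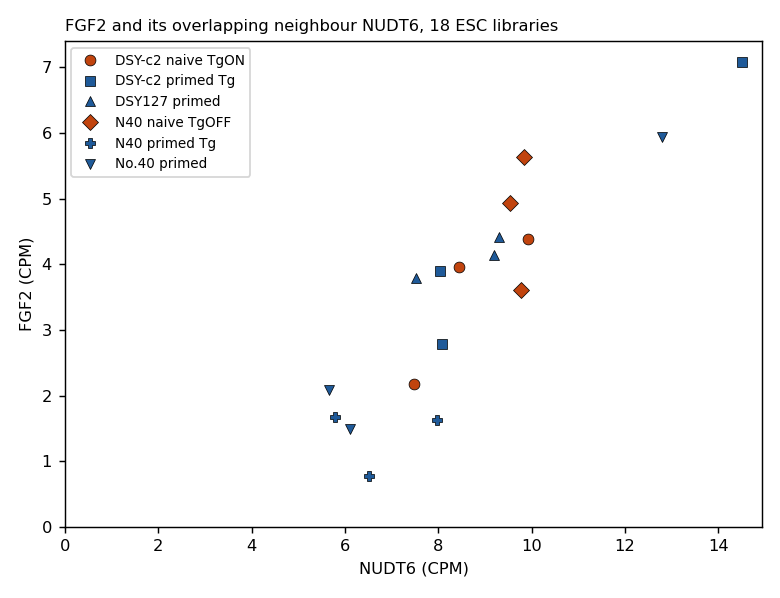
FGF2 (vertical) against NUDT6 (horizontal), both in CPM, with 1 symbol per ESC library (18 libraries, 6 groups). Primed N40 libraries have ratios of FGF2 to NUDT6 counts of 0.119 to 0.289, beside 0.244 in No.40 replicate 3, and the topmost points are primed DSY-c2 replicate 4 and No.40 replicate 1.

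In the embryo FGF2 was scarce at every stage. It had no count in any morula or early blastocyst ICM library, which allows group levels of up to 0.0195 CPM in the morula and 0.023 CPM in the early blastocyst ICM (3 counts over the group, counting error only). These limits take counts as independent, and would be higher if read mates were counted apart. FGF2 was found from the blastocyst on. FGF2 had 0, 0.195 and 0.128 CPM in blastocyst ICM, and 1.51, 0 and 0 CPM in expanded blastocyst ICM. All 3 libraries of a stage held counts only at hatching and in the hatched blastocyst, with 0.075, 1.17 and 0.561 CPM in hatching and 0.402, 1.7 and 2.45 CPM in hatched blastocyst ICM. In the postimplantation epiblast 1 library was again at 0, and the values were 0.0797, 0.427 and 0 CPM. The 7 stages did not differ past the threshold (edgeR adjusted p = 0.0854), but did without expanded blastocyst ICM replicate 1 (adjusted p = 0.024), in a test that called 38% of 16929 genes. Ranked by mean, 5 ESC groups led, at 4.72 CPM in naive N40, 4.59 CPM in primed DSY-c2, 4.12 CPM in DSY127, 3.51 CPM in naive DSY-c2 and 3.17 CPM in No.40 cells. The hatched blastocyst ICM followed at 1.52 CPM, ahead of primed N40 cells at 1.35 CPM. Between every pair of neighbours in this order the library ranges overlapped. The epiblast, at 0.169 ± 0.227 CPM (SD, n = 3), had no library as high as the lowest ESC library.

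The receptor FGFR1, a main receptor for FGF2, fell in naive cells of both lines. It had 153, 151 and 169 CPM in naive DSY-c2 cells, against 424, 350 and 425 CPM in primed DSY-c2 cells. In N40 it had 209, 216 and 250 CPM in naive cells, against 656, 546 and 557 CPM in primed cells. Neither pair of groups overlapped. The log2 fold changes were -1.24 ± 0.17 in DSY-c2 (edgeR adjusted p = 8.58e-06) and -1.23 ± 0.17 in N40 (edgeR adjusted p = 7.3e-06). Their difference was -0.0048 ± 0.23 (edgeR adjusted p = 1), and over the 12 fits that each left out 1 library it lay between -0.07 and 0.11. Each effect was called without any 1 library, at -1.34 to -1.22 in DSY-c2 and at -1.36 to -1.24 in N40. Markers of fibroblasts, neural cells and mesoderm moved in the same direction, but those of 2 other lists did not. In N40, primitive endoderm markers rose, at 103 to 157 CPM in naive cells against 14.8 to 24.5 CPM in primed ones. Trophectoderm markers (5 of 8 measured) rose there too, at 59 to 91.1 CPM against 36.5 to 42.1 CPM. In DSY-c2 the ranges of these lists overlapped. Fibroblast markers summed to 67 to 185 CPM in naive DSY-c2 cells against 312 to 393 CPM in primed ones, and to 180 to 442 CPM in naive N40 cells against 595 to 842 CPM in primed ones. Neural markers (3 of 5 measured) summed to 53.2 to 94.5 CPM in naive DSY-c2 cells against 586 to 630 CPM in primed ones, and to 55.1 to 75 CPM in naive N40 cells against 589 to 642 CPM in primed ones. The part of all these markers in the fall of FGFR1, and in the other naive against primed changes, was not tested. FGFR1 gave no call between primed lines, with log2 differences of -0.46 ± 0.16 for DSY-c2 minus DSY127, whose libraries did not overlap (edgeR adjusted p = 0.273), and 0.13 ± 0.16 for N40 minus No.40 (edgeR adjusted p = 0.631).

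FGFR2, which exists in epithelial and mesenchymal splice forms that gene counts do not separate, showed no called change between naive and primed cells of either line. It had 56, 60.6 and 60.6 CPM in naive DSY-c2 cells, against 58.5, 37 and 53.1 CPM in primed DSY-c2 cells. In N40 it had 76.4, 81.4 and 77.3 CPM in naive cells, against 66.8, 65.9 and 77 CPM in primed cells. The log2 fold changes of 0.36 ± 0.17 and 0.31 ± 0.17 were not called (edgeR adjusted p = 0.0868 and 0.131). Both lines had overlapping libraries. The difference between FGFR1 and FGFR2 was not tested.

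**Figure D3:**
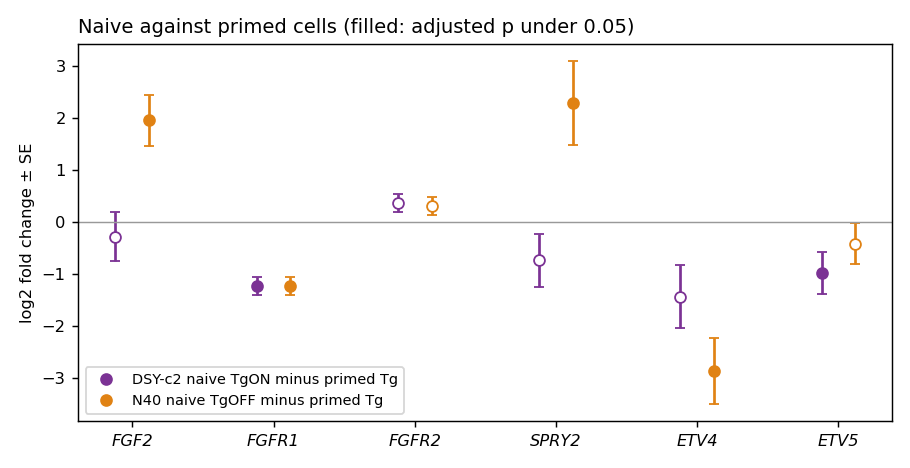
Log2 fold changes of naive against primed cells for the 6 genes, with bars for ± 1 SE, in DSY-c2 and in N40 (3 against 3 libraries each). Filled symbols mark an adjusted p under 0.05. FGFR1 falls alike in both lines (-1.24 and -1.23), FGF2 is positive only in N40 (1.95), and ETV4 and ETV5 are negative in both.

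Both receptors had their highest mean in the postimplantation epiblast, by different courses. FGFR1 averaged 39.7 CPM in the morula, 70.8 CPM in early, 184 CPM in blastocyst, 203 CPM in expanded, 184 CPM in hatching and 318 CPM in hatched blastocyst ICM, and 1065 ± 56.5 CPM in the epiblast (SD, n = 3). The lowest epiblast library, at 1011 CPM, stood above the highest of all other libraries, at 656 CPM in primed N40 cells. FGFR2 averaged 157 CPM in the morula and 124, 61.8, 34.9, 48.2 and 28.1 CPM along the 5 ICM stages, and 219 ± 17.5 CPM in the epiblast (SD, n = 3). Its epiblast libraries, at 200 to 234 CPM, overlapped those of the morula (up to 206 CPM) and of early blastocyst ICM (up to 221 CPM). The epiblast minus the mean of 5 ICM stages was 2.59 ± 0.24 for FGFR1 (edgeR adjusted p = 8.15e-07) and 2.06 ± 0.42 for FGFR2 (edgeR adjusted p = 0.000839), where 44.8% of all genes were called and the median of all genes was 0.20. Size factors of DESeq2 moved that median to 0.44. The ICM mean minus the morula went opposite ways, at 2.10 ± 0.33 for FGFR1 (edgeR adjusted p = 0.000306) and at -1.63 ± 0.43 for FGFR2 (edgeR adjusted p = 0.0127), where 20.8% of all genes were called, 8.65% higher and 12.2% lower in the ICM. The fall of FGFR2 missed the threshold without morula replicate 1 or 2, with an adjusted p of up to 0.0936. Of the 6 genes, 3 were called in each of these embryo comparisons and 4 over the 7 stages. Primitive endoderm markers summed to 597 to 669 CPM in the epiblast, against 556 to 4467 CPM over the ICM libraries, and trophectoderm markers to 63.4 to 72 CPM against 7.32 to 1521 CPM. Markers that rose with the receptors were those of fibroblasts, at 1589 to 1797 CPM in the epiblast against 0 to 31.5 CPM in the ICM, of mesoderm, at 107 to 112 CPM against 0.0892 to 10.9 CPM, and of neural cells, at 84.7 to 116 CPM against 0 to 23.4 CPM. The part of such cells in the embryo levels was not tested.

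SPRY2, the sprouty feedback inhibitor, was near the detection limit in N40 cells of both states. It had 9, 2 and 8 counts in naive N40 cells (0.117, 0.025 and 0.101 CPM), against 0, 2 and 2 counts in primed N40 cells (0, 0.0253 and 0.0261 CPM). No.40 cells had 85, 72 and 48 counts (1.44, 1.56 and 0.77 CPM), so primed N40 cells lay far below them, with a log2 fold change of -6.17 ± 0.73 (edgeR adjusted p = 5.91e-05). SPRY2 was the only 1 of the 6 genes called between these primed cells. The naive against primed change in N40, 2.28 ± 0.81 (edgeR adjusted p = 0.023), rested on 19 counts against 4 with overlapping libraries. Its call was lost with halved counts and in 3 of 4 leave-one-out fits (without primed replicate 1 or naive replicate 1 or 3). Leave-one-out fits that left a compared group with 3 counts or fewer were not considered. In DSY-c2, SPRY2 had 1.28, 0.746 and 0.447 CPM in naive cells, against 1.34, 1.23 and 1.87 CPM in primed cells, with a log2 fold change of -0.74 ± 0.51 (edgeR adjusted p = 0.224). The difference of the naive effects, -3.02 ± 0.96 (edgeR adjusted p = 0.0438), lost its call in 8 of the 10 leave-one-out fits kept by the same rule. Among the 8 were the fits without primed DSY-c2 replicate 4, naive DSY-c2 replicate 3 or naive N40 replicate 1. In the embryo SPRY2 had no count in early blastocyst ICM and averaged 1.79 ± 0.281 CPM in the epiblast (SD, n = 3), close to 1.73 ± 1.01 CPM in hatching blastocyst ICM. The epiblast differed from the mean of the ICM stages (edgeR adjusted p = 0.00918), with no fold given because 1 stage had no count.

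ETV5 was lower in naive DSY-c2 cells, and its N40 values were split within groups. It had 17.2, 14.8 and 9.82 CPM in naive DSY-c2 cells, against 25, 29.8 and 34.4 CPM in primed DSY-c2 cells. Every naive DSY-c2 library lay below every primed one. ETV5 fell by 0.99 ± 0.40 on the log2 scale (edgeR adjusted p = 0.0442), a call that was lost without any 1 of 4 libraries (primed replicates 4 and 5, naive replicates 2 and 3), where the log2 fold change was -1.06 to -0.82 with adjusted p-values of 0.0739 to 0.141. Without naive replicate 3, which leaves libraries of 1 lane tag only, it was -0.82. In N40, ETV5 had 48.4, 18.4 and 15.7 CPM in naive cells, against 34.3, 22.9 and 64.8 CPM in primed cells. Naive replicate 1 exceeded 2 of the 3 primed libraries, and the other naive libraries lay below all of them. The log2 fold change in N40 was -0.42 ± 0.40 (edgeR adjusted p = 0.374). It became -1.20 (adjusted p = 0.00681) without naive replicate 1, the library with 442 CPM of fibroblast markers, and 0.02 (adjusted p = 0.971) without primed replicate 3. The part of fibroblast markers in the ETV5 level was not tested. The naive effects of the lines differed by -0.57 ± 0.56 (edgeR adjusted p = 0.539).

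ETV4, the close relative of ETV5 in the PEA3 group of ETS factors, was lower in naive cells of both lines, with a call in N40. It had 19.5, 3.62 and 5.4 CPM in naive N40 cells, against 36.1, 82.1 and 113 CPM in primed N40 cells. The groups did not overlap, and naive replicate 1 was again the highest naive library. ETV4 fell by 2.87 ± 0.63 on the log2 scale in N40 (edgeR adjusted p = 0.00118), and by 2.56 to 4.04 with each library left out. In DSY-c2 it had 26, 17.5 and 7.98 CPM in naive cells, against 32.4, 59.3 and 58 CPM in primed cells, again without overlap. The log2 fold change of -1.44 ± 0.60 there missed the threshold narrowly (edgeR adjusted p = 0.0512), and passed it without primed replicate 2 or naive replicate 1 and under 5 other settings. The difference between lines, 1.43 ± 0.83, was not called (edgeR adjusted p = 0.279), but was without naive N40 replicate 1 (2.58, adjusted p = 0.0261).

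Neither ETS factor was called between primed lines. ETV5 averaged 29.8 ± 4.69 CPM in primed DSY-c2 and 27.6 ± 2.72 CPM in DSY127 cells (SD, n = 3 each), and 40.7 ± 21.7 CPM in primed N40 and 41.9 ± 4.25 CPM in No.40 cells (SD, n = 3 each). The log2 differences were 0.05 ± 0.40 and -0.14 ± 0.39 (edgeR adjusted p = 1 and 0.84). DSY127 had 26, 26 and 30.7 CPM and No.40 had 46, 37.5 and 42.1 CPM, which did not overlap, but the log2 difference of -0.59 ± 0.40 was not called (edgeR adjusted p = 0.47). ETV4 likewise gave no call, at 0.39 ± 0.58 for DSY-c2 minus DSY127, 0.59 ± 0.58 for N40 minus No.40 and -0.38 ± 0.58 for DSY127 minus No.40 (edgeR adjusted p = 1, 0.529 and 0.795).

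**Figure D4:**
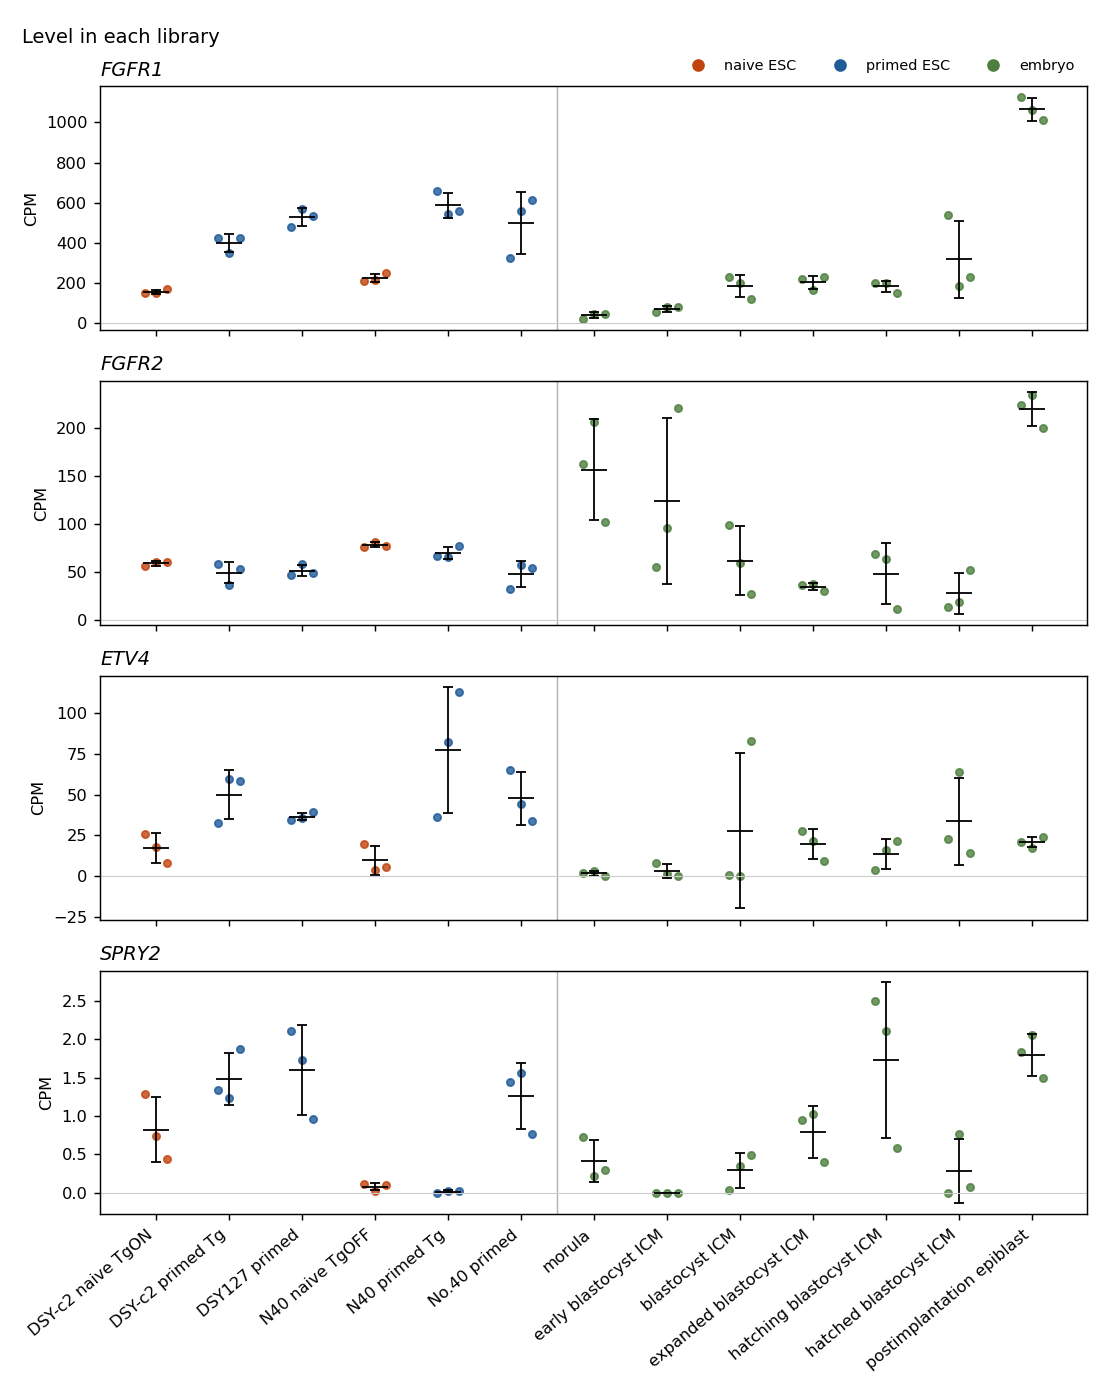
Levels of FGFR1, FGFR2, ETV4 and SPRY2 (top to bottom) in CPM on linear axes, 1 point per library, with the mean and SD of 3 libraries in black (an SD bar may run below 0). FGFR1 and FGFR2 have their highest means in the epiblast, at 1065 and 219 CPM. ETV4 is lower in naive than in primed cells of both lines, and SPRY2 is close to 0 in both N40 groups.

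In the embryo ETV5 came up between the early blastocyst and the blastocyst. It had 2.45, 0.0396 and 0.0759 CPM in the morula and 3.85, 0.136 and 0.0445 CPM in early blastocyst ICM. It then had 28.6, 7.41 and 25.8 CPM in blastocyst, 32.8, 31.1 and 13.7 CPM in expanded, 47.4, 80.2 and 37.1 CPM in hatching and 6.14, 55.2 and 34.1 CPM in hatched blastocyst ICM. The lowest of these, 6.14 CPM, was hatched replicate 1, the library with 1521 CPM of trophectoderm markers, whose part in it was not tested. All libraries of the last 4 ICM stages lay above all 6 libraries of the first 2 stages. The epiblast had 81.4, 57.4 and 76.8 CPM, the highest mean of the 13 groups at 71.8 ± 12.7 CPM (SD, n = 3). The stages differed (edgeR adjusted p = 0.0196), as they did without each library in turn (adjusted p of 0.00248 to 0.0394). The ICM mean minus the morula was 4.25 ± 1.36 (edgeR adjusted p = 0.0344), and the call was lost without morula replicate 2 or 3, at an adjusted p of 0.113. The largest value, 8.08, came without morula replicate 1, the morula library with 2.45 CPM. The epiblast minus the ICM mean was 2.08 ± 0.86 (edgeR adjusted p = 0.0574), a call missed here and made under 7 other settings. Without early blastocyst ICM replicate 1 it was 2.95 (adjusted p = 0.00272). ETV4 ranged more widely between libraries of a stage, from 0.311 and 0.238 to 83.1 CPM in blastocyst ICM, and gave no call over the stages (edgeR adjusted p = 0.314). Ranked over the 13 groups, ETV5 ran from 71.8 CPM in the epiblast through 54.9 CPM in hatching ICM, 41.9 CPM in No.40, 40.7 CPM in primed N40, 31.8 CPM in hatched ICM, 29.8 CPM in primed DSY-c2, 27.6 CPM in DSY127, 27.5 CPM in naive N40, 25.8 CPM in expanded ICM and 20.6 CPM in blastocyst ICM to 13.9 CPM in naive DSY-c2 cells. Neighbours in that order overlapped, except naive DSY-c2 cells and the next group, early blastocyst ICM at 1.34 CPM. FGF2 and ETV5 thus did not share an order: the epiblast ranked 1 of 13 for ETV5 and 10 of 13 for FGF2.

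Lists of 92 pathway genes in 6 roles, of which 54 had a row, placed the 6 genes among their partners. In ESCs 51 were tested, and 29 were called in each line, 56.9% against a background of 58.8% in DSY-c2 and 61% in N40. The pathway as a whole was thus not called more often than other genes were. In DSY-c2, 13 of the 29 were higher and 16 lower in naive cells, where 29.6% and 29.3% of all genes were. In N40, 17 were higher and 12 lower, where 32.3% and 28.7% of all genes were. The median log2 fold change of the 51 was -0.22 in DSY-c2 and -0.0039 in N40, beside 0.03 and 0.09 over all genes tested. The lines had 20 called genes in common, 69% of each list of 29, with 11 higher in both, 9 lower in both and 0 in opposite directions. Over all genes, 8257 were called in both lines, 78.2% of the DSY-c2 calls and 75.4% of the N40 calls, and 2.45% of them in opposite directions, so the pathway genes shared calls no more often than genes at large. These comparisons share no library. Of the 6 genes, FGFR1 was among the 20, and FGF2, FGFR2, SPRY2, ETV4 and ETV5 were not.

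Among FGF ligands, 4 of 7 tested fell in DSY-c2 and 2 fell in N40, where FGF2 alone rose. FGF13, an intracellular FGF homologue that does not act through the receptors and modulates sodium channels, had 7.71, 8.34 and 6.83 CPM in naive DSY-c2 cells, against 15.8, 16.6 and 17.8 CPM in primed DSY-c2 cells. In N40 it had 2.62, 1.5 and 1.55 CPM in naive cells, against 13.1, 17.9 and 14.1 CPM in primed cells. FGF13 fell by 1.03 ± 0.19 in DSY-c2 and by 2.84 ± 0.21 in N40 on the log2 scale (edgeR adjusted p = 0.000227 and 9.08e-09). The other ligands called, FGF18, FGF21 and FGF22, stayed under 0.9 CPM in every ESC library and are named after their values were seen.

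Receptors and co-receptors gave 1 rise and 3 falls among 8 tested in DSY-c2, and 2 rises and 3 falls in N40. GPC3, a glypican heparan sulfate proteoglycan, had 8.83, 12.1 and 9.33 CPM in naive DSY-c2 cells, against 62.9, 68.1 and 44 CPM in primed DSY-c2 cells. In N40, GPC3 had 3.04, 1.09 and 1.37 CPM in naive cells, against 85.1, 72 and 65.6 CPM in primed cells, and its log2 fold changes were -2.43 ± 0.37 in DSY-c2 and -5.19 ± 0.43 in N40 (edgeR adjusted p = 5.11e-05 and 8e-08). FGFRL1, a receptor that lacks the kinase domain, fell by 2.34 ± 0.32 in DSY-c2 and by 1.77 ± 0.31 in N40 on the log2 scale (edgeR adjusted p = 1.05e-05 and 0.000116). FGFR3 went the other way from FGFR1. It had 71.7, 102 and 71.8 CPM in naive DSY-c2 cells, against 49, 44.8 and 59.1 CPM in primed DSY-c2 cells, and rose by 0.79 ± 0.15 in DSY-c2 and by 0.74 ± 0.15 in N40 (edgeR adjusted p = 0.000278 and 0.000415). FGFR4 showed no call in either line (0.23 ± 0.17 and 0.25 ± 0.17, edgeR adjusted p = 0.253 and 0.209).

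In the RAS-ERK cascade 8 of 17 genes rose and 2 fell in DSY-c2, and 9 rose and 2 fell in N40. SOS2, a RAS exchange factor, averaged 115 ± 11.3 CPM in naive DSY-c2 cells, against 28.5 ± 1.65 CPM in primed DSY-c2 cells (SD, n = 3 each), a rise of 2.12 ± 0.11 on the log2 scale, and it rose by 2.59 ± 0.11 in N40 (edgeR adjusted p = 4.18e-10 and 5.52e-11). The docking adaptor GAB1 rose by 1.09 ± 0.28 in DSY-c2 and by 1.76 ± 0.29 in N40 (edgeR adjusted p = 0.00381 and 7.45e-05), and it was at least 0.89 in DSY-c2 with each library left out. SHC1, an adaptor that links receptors to GRB2 and SOS, fell by 1.43 ± 0.19 in DSY-c2 and by 1.84 ± 0.19 in N40 (edgeR adjusted p = 8.07e-06 and 5.05e-07). MAP2K1, the ERK kinase MEK1, rose by 1.32 ± 0.09 in DSY-c2 and by 0.59 ± 0.08 in N40 (edgeR adjusted p = 4.06e-09 and 1.47e-05). FRS2, the adaptor that FGF receptors phosphorylate, fell by 0.29 ± 0.12 in DSY-c2 (edgeR adjusted p = 0.0446). That call was lost without any 1 of 5 libraries (primed replicates 2, 4 and 5, naive replicates 2 and 3). In N40, FRS2 changed by 0.08 ± 0.12 (edgeR adjusted p = 0.593). These are RNA levels, and the activity of the kinases was not measured.

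**Figure D5:**
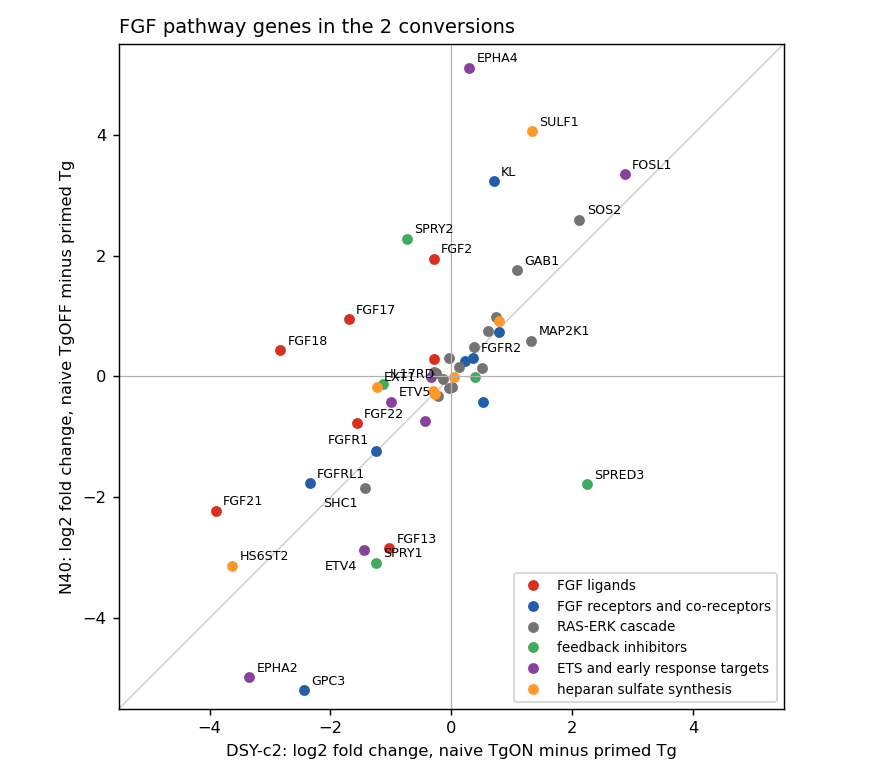
Log2 fold change of naive against primed cells in N40 (vertical) against DSY-c2 (horizontal) for the 51 pathway genes tested, 1 of them not drawn, coloured by role, with the line of equal change in grey and genes named where either change exceeds 1 or the gene is one of the 6. EPHA2, GPC3 and FGFR1 lie low in both lines, SOS2 high in both, and FGF2, SPRY2 and EPHA4 lie above the line of equal change.

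Of the feedback inhibitors, 1 of 5 tested rose and 2 fell in DSY-c2, and 1 rose and 1 fell in N40, where the rise was that of SPRY2. SPRY1 fell in both, by 1.25 ± 0.31 in DSY-c2 and by 3.08 ± 0.33 in N40 on the log2 scale (edgeR adjusted p = 0.00223 and 6.13e-07), and is named here after its values were seen, since no ESC group averaged 10 CPM. It had 0.675, 1.22 and 1.07 CPM in naive N40 cells, against 7.12, 7.37 and 13.2 CPM in primed N40 cells. IL17RD, an FGF receptor antagonist, fell by 1.13 ± 0.45 in DSY-c2 (edgeR adjusted p = 0.0399). The call was lost without primed replicate 4, naive replicate 1 or naive replicate 2 (adjusted p of up to 0.3). Without primed replicate 4, where IL17RD had 37.8 CPM beside 15.7 and 12.9 CPM, the value was -0.51.

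Among ETS and early response targets, 1 of 7 rose and 2 fell in DSY-c2, and 2 rose and 3 fell in N40. EPHA2, an ephrin receptor gene induced by ERK signalling, had 8.89, 7.87 and 4.87 CPM in naive DSY-c2 cells, against 51.4, 114 and 67.9 CPM in primed DSY-c2 cells. In N40, EPHA2 had 6.09, 2.87 and 2.09 CPM in naive cells, against 94.6, 106 and 186 CPM in primed cells. It fell by 3.34 ± 0.43 in DSY-c2 and by 4.98 ± 0.47 in N40 on the log2 scale (edgeR adjusted p = 1.07e-05 and 3.32e-07). EPHA4, another ephrin receptor, had 120, 131 and 183 CPM in naive N40 cells, against 3.67, 3.94 and 6.24 CPM in primed N40 cells, a rise of 5.11 ± 0.95 (edgeR adjusted p = 0.000329). In DSY-c2, EPHA4 had 53.5, 60.3 and 104 CPM in naive cells, against 33.6, 136 and 18.1 CPM in primed cells, with no call (0.30 ± 0.79, edgeR adjusted p = 0.765). The difference between lines for EPHA4, -4.81 ± 1.19 (edgeR adjusted p = 0.0158), was -3.45, still called, without primed DSY-c2 replicate 4, the library with 136 CPM. The third PEA3 factor, ETV1, fell by 0.73 ± 0.29 in N40 (edgeR adjusted p = 0.0417), a call lost without any 1 of 3 libraries and with a replicate block, and changed by -0.44 ± 0.29 in DSY-c2 (edgeR adjusted p = 0.212).

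Enzymes of heparan sulfate, the co-factor of FGF binding, gave 2 rises and 3 falls of 7 in DSY-c2, and 2 rises and 1 fall in N40. SULF1, which removes sulfate groups from heparan sulfate outside the cell, had 50.5, 63.6 and 52.9 CPM in naive N40 cells, against 4.22, 3.79 and 3.09 CPM in primed N40 cells, a rise of 4.06 ± 0.49 (edgeR adjusted p = 3.8e-06). In DSY-c2 its rise was 1.33 ± 0.44 (edgeR adjusted p = 0.0167), and the call was lost without primed replicate 2 or 5 or naive replicate 3, with an adjusted p of up to 0.0702. NDST2, a sulfotransferase that modifies the chains, rose by 0.79 ± 0.10 in DSY-c2 and by 0.91 ± 0.10 in N40 (edgeR adjusted p = 7.17e-06 and 1.22e-06). EXT1, a polymerase of the chains, fell by 1.23 ± 0.37 in DSY-c2 (edgeR adjusted p = 0.00967), but by 0.68 without primed replicate 4, where the call was lost (adjusted p = 0.0784).

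Primed N40 cells differed from No.40 cells in 10 of the 51 genes, 2 higher and 8 lower, or 19.6% beside 21.9% of all genes. Without No.40 replicate 1, 4 of the 8 lower calls were lost (FRS2, SOS1, SOS2 and EPHA4). Fibroblast markers summed to 595 to 842 CPM in primed N40 cells against 1146 to 2023 CPM in No.40 cells, and their part in these differences was not tested. EXT1 had 11, 11.6 and 9.9 CPM in primed N40 cells, against 61.5, 55.3 and 22.5 CPM in No.40 cells, and fell by 2.22 ± 0.38 on the log2 scale (edgeR adjusted p = 0.000929). SULF1 fell by 2.15 ± 0.46 there (edgeR adjusted p = 0.00413), and by 1.16 without No.40 replicate 1, with 28.9 CPM against 9.9 and 6.56 CPM in the other No.40 libraries. MAP2K2, the ERK kinase MEK2, had 163, 156 and 148 CPM in primed N40 cells, against 88.2, 89.8 and 103 CPM in No.40 cells, a rise of 0.63 ± 0.07 (edgeR adjusted p = 6.06e-05). Primed DSY-c2 and DSY127 cells differed in 0 of the 51 genes by edgeR and by DESeq2, and in 5 at an unadjusted p under 0.05. Of all 17957 genes, 337, 545 and 1518 did so. DSY127 and No.40 cells differed in 3 of the 51, or 5.88% beside 4.47% of all genes, all 3 higher in DSY127. FGFR3 was 1 of them, at 42.7, 57.2 and 43.8 CPM in DSY127 cells against 32.3, 29.2 and 27.7 CPM in No.40 cells (0.69 ± 0.15, edgeR adjusted p = 0.0141), a call lost without DSY127 replicate 2 or No.40 replicate 2 or 3.

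In the embryo 49 of the pathway genes were tested. The epiblast was higher than the ICM mean in 19 and lower in 2, or 42.9% called beside 44.8% of all genes, and 26.1% of all genes were higher and 18.7% lower. Of the 9 genes that fell in naive cells of both lines, 8 were tested here and 7 were called higher in the epiblast (FGF13, FGFR1, FGFRL1, GPC3, SHC1, EPHA2 and HS6ST2), while SPRY1 gave 1.96 ± 1.06 (edgeR adjusted p = 0.142) and FGF21 was too low to test. The same share among all genes that fell in both lines was not counted, so this is not a result about the pathway. GPC3 had 770, 650 and 756 CPM in the epiblast, against 6.39 to 235 CPM over the 15 ICM libraries (4.29 ± 0.52, edgeR adjusted p = 1.04e-05). SHC1 was 2.68 ± 0.19 higher in the epiblast (edgeR adjusted p = 6.49e-08), and EPHA2 4.88 ± 0.74 higher (edgeR adjusted p = 6.87e-05). FGF13 had 33.4, 38.7 and 38.7 CPM in the epiblast, against 0 to 1.65 CPM over the ICM libraries (edgeR adjusted p = 0.000312, with no fold because 3 ICM stages had no count). SPHK1, which encodes a sphingosine kinase, was 1.94 ± 0.50 lower in the epiblast (edgeR adjusted p = 0.00453). Between the ICM mean and the morula, 13 genes were higher in the ICM and 10 lower, or 46.9% beside 20.8% of all genes. MAPK3, a kinase of the cascade, rose by 4.90 ± 0.50 and GAB1 fell by 2.16 ± 0.32 on the log2 scale in the ICM (edgeR adjusted p = 8.68e-06 and 0.000202). ETV1 joined ETV5 among the rises, at 8.16 ± 1.47 (edgeR adjusted p = 0.000893), with 0.0396 to 0.554 CPM in the 3 morula libraries. Over the 7 stages 30 of the 49 differed, 61.2% beside 38% of all genes. These shares were not tested against the background.

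The genes whose pattern over the 13 group means was most like that of FGF2 were ZGRF1 (Pearson r = 0.970, Spearman rho = 0.955), QSOX2 (0.944 and 0.856), TCEAL8 (0.942 and 0.839), STRIP2 (0.939 and 0.908) and TMEM258 (0.939 and 0.809), on log2 CPM among 8315 genes with a symbol and a mean of at least 5 CPM. For ETV5, among 8314 genes, they were TMC4 (Pearson r = 0.961, Spearman rho = 0.857), DTX3L (0.955 and 0.516), ZNF821 (0.951 and 0.440), PAK1 (0.949 and 0.610) and WDR54 (0.944 and 0.863). ETV4 followed ETV5 at r = 0.802 and rho = 0.637, and NUDT6 followed FGF2 at r = 0.705 and rho = 0.842. These values describe 13 group means that share libraries, and ESC and embryo groups form separate clusters in them, so no p is given.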

How the data were processed

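Polyadenylated RNA was extracted with RNeasy Mini columns and made into libraries with the TruSeq Stranded mRNA kit, per the labels' protocols. The submitters' processing notes name 3 tools: Trim Galore 0.4.0, the aligner STAR 2.5.3a and the read counter featureCounts 1.5.2. Neither the genome build nor the annotation or strand setting is given here by any source. The authors deposited raw counts per gene ID in 2 lane columns for each library. The 78 lane columns of the 39 libraries were summed per library, and 6 columns of no sample here were not used. Over genes with at least 50 counts, chi-square per gene was 1.91 to 2 between the lanes of 1 library. It was at least 28.1 between libraries of a group, so no library was a copy of another in its group. Libraries of different groups were not compared in this way. Even numbers made up 65% of counts from 1 to 49 and 50.8% of those of 500 or more, so read mates appear to be counted apart, and halved counts were tried. Symbols were matched for 12660 of 30811 IDs (41.1%).

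Levels are CPM with TMM over all libraries. Tests used the robust quasi-likelihood test of edgeR 4.0.16 in R 4.3.3, with TMM scaling and filterByExpr, fitted apart on 18 ESC libraries (17957 genes) and 21 embryo libraries (16929 genes). Adjusted p-values are Benjamini-Hochberg values over all genes of a fit, called under 0.05, and tests are two-sided. An SE is the log2 fold change divided by the root of its F. The tests were checked on simulated counts with known changes. Alternatives were DESeq2 1.42.0 and its size factors, no low-count filter, at least 1 CPM in 3 libraries, halved counts, only the groups compared, all 39 libraries in 1 fit, a replicate block, and each library left out. Intervals and floors cover counting error only. Genes named from the lists were up to 4 called members per list, direction and comparison with the largest changes and at least 10 CPM in the higher group, besides the 6 genes, NUDT6 and the 5 genes most like FGF2 and ETV5. The members, lists and tests were chosen with earlier results of these data known. The values of 1 pathway gene are not reported here, though it is included in the list counts.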

Additional observations from a re-analysis of the deposited data

Results flagged for a closer look

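The difference of the naive effects (DSY-c2 minus N40), on the log2 scale and tested as an interaction in edgeR, was called for further pathway genes besides FGF2 (-2.24) and SPRY2 (-3.02), which were described above with the libraries they depend on. The effect was less negative in DSY-c2 than in N40 for FGF13 (1.81, adjusted p = 0.000552) and GPC3 (2.76, adjusted p = 0.00293). It was more positive in DSY-c2 for MAP2K1 (0.73, adjusted p = 0.000985). It was less positive in DSY-c2 for SOS2 (-0.48, adjusted p = 0.0381), EPHA4 (-4.81, adjusted p = 0.0158) and SULF1 (-2.73, adjusted p = 0.00948). The SOS2 difference lost its call in 10 of 12 fits that each left out 1 library. The fits without primed DSY-c2 replicate 4 or naive N40 replicate 1 were among the 10. Line and the TgON or TgOFF state differ together between these groups and cannot be told apart.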

How the results depend on the processing

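Every alternative was run on all comparisons where it could be fitted. With all 39 libraries in 1 fit, which adds the spread between embryo libraries to the ESC tests, genes called came to 1748 for DSY-c2 naive against primed (10565 in the separate fits), 2371 for N40 (10952), 12 for the difference of the lines (2716), 111 for primed DSY-c2 against DSY127 (337), 267 for primed N40 against No.40 (3937), 13 for DSY127 against No.40 (802), 6613 for ICM against morula (3526) and 13268 over the stages (6435). In that fit the calls of FGF2 in N40 (1.80, adjusted p = 0.467), of its line difference (-2.19, adjusted p = 1) and of ETV5 in DSY-c2 (-1.09, adjusted p = 0.578) were lost, and FGF2 over the stages gave an adjusted p of 0.00103. Counting every gene named, that fit ended 11 of 18 calls in DSY-c2, 10 of 19 in N40 (SPRY2 and ETV4 among them), 9 of 9 line differences, 8 of 10 for primed N40 against No.40 and 2 of 2 for DSY127 against No.40, reversed 0 of these, and ended 0 of 14 for epiblast against ICM and 0 of 20 for ICM against morula. DESeq2 called 545 genes for primed DSY-c2 against DSY127 and 1541 for DSY127 against No.40, and gave FGF2 -1.31 (adjusted p = 0.0256) for primed N40 against No.40. Fits of only the groups compared called 1748 genes for primed N40 against No.40 and 430 for DSY127 against No.40, and gave ETV5 -0.60 (adjusted p = 0.0487) for DSY127 against No.40 and 4.26 (adjusted p = 0.0567) for ICM against morula. Without the low-count filter ETV5 in DSY-c2 was -1.06 (adjusted p = 0.0565). ETV5 in the epiblast against the ICM passed the threshold at 2.32 with size factors and with DESeq2, 2.12 with the CPM filter and with all libraries, 2.07 with halved counts and 2.15 with only the groups compared. The cause was not tested. FGFR1's difference between lines, near 0, changed sign to 0.01 to 0.08 (0.02, 0.04, 0.01, 0.02, 0.08 and 0.04). The share of called genes that were higher was 37.8% for primed N40 against No.40 and 50.8% without the filter, and 41.5% for ICM against morula and 54.4% with DESeq2.

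With each library left out, genes called ranged from 146 to 262 for primed DSY-c2 against DSY127, 368 to 1165 for DSY127 against No.40, 2571 to 4740 for primed N40 against No.40 and 2249 to 3896 for ICM against morula. ETV5 ranged from -1.19 to -0.82 in DSY-c2, -1.20 to 0.02 in N40, -1.08 to 0.19 for their difference, -0.01 to 0.22 for primed DSY-c2 against DSY127, -0.62 to 0.19 for primed N40 against No.40, 1.89 to 2.95 for epiblast against ICM and 3.48 to 8.08 for ICM against morula. FGF2 ranged from -0.57 to 0.15 in DSY-c2, -2.42 to -1.70 for the difference, -0.31 to 0.41 for primed DSY-c2 against DSY127 and -1.58 to -0.41 for primed N40 against No.40, with stage adjusted p-values of 0.024 to 0.143. Values without a call changed sign for FGFR1 (-0.16 to 0.23 for DSY127 against No.40, -0.01 to 0.38 for primed N40 against No.40, -0.07 to 0.11 for the difference), FGFR2 (-0.20 to 0.10 for primed DSY-c2 against DSY127, -0.13 to 0.25 for DSY127 against No.40, -0.05 to 0.25 for the difference), NUDT6 (-0.31 to 0.18 in DSY-c2, -0.12 to 0.38 for primed DSY-c2 against DSY127, -0.12 to 0.55 for DSY127 against No.40, -0.48 to 0.19 for primed N40 against No.40, -1.37 to 0.32 for ICM against morula) and SPRY2 (-0.38 to 0.12 for primed DSY-c2 against DSY127).

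Same-numbered libraries did not deviate together (N40 pairs r = -0.0885, -0.0298 and -0.0305), so the numbers were not taken as pairs. A replicate block called 10782 genes in N40, 3519 for primed N40 against No.40, 715 for DSY127 against No.40, 7455 for epiblast against ICM and 3178 for ICM against morula, and gave ETV5 2.25 (adjusted p = 0.038) for epiblast against ICM. No paired analysis was possible because of too few shared numbers in the 3 comparisons that involve DSY-c2 cells, whose primed libraries are numbered 2, 4 and 5. Low counts limit the results for SPRY2 in N40 and for FGF2 and SPRY2 in the embryo, where libraries held few or no counts. The N40 libraries were not shallow, at 72.3 to 78.7 M counts in all, beside 38.8 to 56.7 M in No.40 libraries.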
